A study of Mus musculus with 6 samples.

Results

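The glycolysis and hypoxia genes described here are 38 named genes, of 21766 gene symbols listed, in RNA-seq of the distal mandible of mouse embryos at E10.75 (embryonic age in days). They were chosen by name, as 25 genes of glucose uptake, glycolysis and pyruvate use and 13 genes of the hypoxia-inducible factor (HIF) pathway or its targets, and all 38 were found. Polyadenylated RNA was sequenced from 6 single embryos of 3 litters, with 1 embryo labelled mutant and 1 labelled control from each litter. Levels are given in TPM (a level scaled for transcript length and library total), and the sequencing depth behind them is unknown.

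Every embryo carried Hand2-Cre, a Cre recombinase named for the distal arch gene Hand2, and 1 copy of the Rosa26 mTmG reporter, whose cells turn green after recombination. Embryos labelled mutant were Msx1f/f;Msx2f/f;Rosa26mTmG/+;Hand2-Cre, whereas those labelled control were Msx1f/+;Msx2f/f;Rosa26mTmG/+;Hand2-Cre. Both labels therefore shared the homozygous floxed Msx2, those labelled control kept 1 wild-type Msx1 allele, and deletion depends on where Hand2-Cre is active. Green distal mandibles were dissected without a stated sort of cells, so cells without Cre activity may be in the RNA. In such bulk samples, fewer cells of a type and less RNA per cell cannot be told apart.

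Glycolysis converts glucose to pyruvate in a preparatory phase that spends ATP and a payoff phase that regains it, and lactate dehydrogenase then converts pyruvate to lactate. HIF-1 is a transcription factor of an oxygen-labile alpha subunit (Hif1a) and a stable partner. When oxygen is sufficient, prolyl hydroxylases such as Egln1 mark the alpha subunit for destruction, and when oxygen is low it accumulates and activates glucose transporters, glycolytic enzymes, Vegfa, Bnip3 and its own hydroxylase Egln3. Early embryos develop at low oxygen, and many of their tissues use glycolysis heavily.

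The targeted gene Msx1 went against the labels in litters 2 and 3. In litter 1 it stood at 1.90 TPM under the mutant label and 84.1 TPM under the control label. Litter 2 had 78.8 and 2.61 TPM in that order, and litter 3 had 73.3 and 1.99 TPM. Below, the lower-Msx1 library of a litter is the one under 10 TPM, which is the library labelled mutant in litter 1 and the library labelled control in litters 2 and 3. The other library of each litter had over 50 TPM. Because this split rests on a measured value, littermates are set side by side without a mean over the litters and without a test. The 8 arch mesenchyme markers, among them Prrx1, Twist1 and Hand2, were present in every library, at 25.6 TPM (Alx4) or more. The 13 red blood cell markers, globin genes among them, summed to 22587 TPM in litter 1 under the mutant label, against 6896 to 9743 TPM elsewhere. Mitochondrially encoded genes made up 8.03% of listed TPM in its littermate labelled control, against 6.02% to 6.51% elsewhere.

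HIF binds a short core sequence in the promoters and enhancers of its targets, so promoters of 3 members are shown: Bnip3, which had the smallest p of the members in the authors' deposited table, and Hk2 and Egln3, whose levels separated the litters. The core was searched as ACGTG or GCGTG on both strands in the 250 bases before each RefSeq transcription start (GRCm38.p6). Each sequence runs 5′ to 3′ toward the start of its gene, and all 3 genes are on the minus strand. Capitals mark each match in either orientation. The windows are chr7:138909520-138909756 for Bnip3, with the bases inside the annotated gene left out, chr6:82774455-82774704 for Hk2 and chr12:54203875-54204124 for Egln3.
Bnip3: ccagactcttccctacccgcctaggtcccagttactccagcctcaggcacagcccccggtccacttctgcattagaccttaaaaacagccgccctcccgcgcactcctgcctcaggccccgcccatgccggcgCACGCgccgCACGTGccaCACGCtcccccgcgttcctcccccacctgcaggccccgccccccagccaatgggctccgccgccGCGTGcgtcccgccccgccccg
Hk2: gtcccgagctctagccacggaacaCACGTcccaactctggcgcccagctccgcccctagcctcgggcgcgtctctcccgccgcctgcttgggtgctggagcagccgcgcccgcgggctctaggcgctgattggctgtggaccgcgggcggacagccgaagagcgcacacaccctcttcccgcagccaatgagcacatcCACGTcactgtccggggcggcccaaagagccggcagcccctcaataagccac
Egln3: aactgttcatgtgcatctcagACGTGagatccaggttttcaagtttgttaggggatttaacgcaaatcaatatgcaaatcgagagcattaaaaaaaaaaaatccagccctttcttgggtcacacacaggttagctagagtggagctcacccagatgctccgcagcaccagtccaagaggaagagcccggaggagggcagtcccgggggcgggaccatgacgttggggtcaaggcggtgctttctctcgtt

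The Bnip3 window held 2 matches to ACGTG, which overlap as the 2 strands of 1 palindrome, and 3 matches to GCGTG. Hk2 held 2 matches to ACGTG and Egln3 held 1, and neither held GCGTG. A window was found for 35 of the 38 members, all but Bnip3l, Ndrg1 and Slc2a3. ACGTG occurred in a window of 11 of 24 glycolysis genes (45.8%) and 10 of 11 HIF genes (90.9%), against 18.5% of the 27025 genes with a window. GCGTG occurred in 16 of 24 (66.7%) and 8 of 11 (72.7%) respectively, against 30.9% of all genes. For Ldha, Pgam1, Hif1a and Vegfa, ACGTG lay only in a window whose following bases were not found in a GENCODE transcript of the gene. The same held for GCGTG of Eno3, Pgam1 and Vegfa. That Vegfa window, chr17:46025164-46025413, lies inside the annotated gene, and these windows may not be promoters. A gene counted when any of its windows matched, so a gene with more windows had more chances to count. The share of all genes covers genes of any level. These shares describe letters in a window and not bound sites, and the HIF genes were listed because they are known as HIF pathway genes or targets.

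Glycolytic enzymes were among the most abundant transcripts of the mandible. Members with a mean of at least 100 TPM numbered 9, 18 lay between 10 and 100 TPM, 8 between 1 and 10 TPM, and 3 (Eno2, Adm and Car9) below 1 TPM. Gapdh, the dehydrogenase that opens the payoff phase, had a mean of 3607 TPM and ranked 24 of all symbols. Eno1 (enolase), Pgam1 (phosphoglycerate mutase), Ldha (lactate dehydrogenase A) and Pkm (pyruvate kinase) followed at 664, 566, 553 and 503 TPM. Together the 25 glycolysis genes held 0.926% to 1.07% of the listed TPM per library, and the 13 HIF genes 0.0259% to 0.0364%. Several of these enzymes, such as Gapdh, have processed pseudogene copies in the mouse genome, and how their reads were shared out is not given in the sources used here.

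Counted over members only, 1 paralogue made up most of the TPM in each of the 6 enzyme families given first. The order was the same in all 6 libraries. Among aldolases Aldoa made up 99.3% to 99.7% of the summed TPM and Aldoc, the brain form, the rest. Eno1 made up 91.7% to 93.2% of the enolases and Eno3, the muscle form, 6.63% to 8.26%, while Eno2, the neuronal form, did not exceed 1.23 TPM. Among phosphofructokinases the liver form Pfkl made up 69.0% to 77.1%, the muscle form Pfkm 18.7% to 27.9% and the platelet form Pfkp 2.16% to 4.22%. Hk2, the inducible hexokinase, made up 61.2% to 77.8% of the TPM of Hk1 and Hk2. Ldha made up 66.0% to 74.9% against Ldhb, whose subunit favours the reaction from lactate to pyruvate. Egln1 made up 83.9% to 92.6% of the TPM of Egln1 and Egln3. Their paralogue Egln2, which is not a member and is left out of that share, was at 24.4 to 30.5 TPM. The glucose transporters Slc2a1 (GLUT1) and Slc2a3 (GLUT3) were near equal, with Slc2a1 at 42.1% to 60.1% of their sum and the higher of the pair in 3 of 6 libraries. Among collagen prolyl hydroxylases P4ha1 made up 49.2% to 64.6% against P4ha2, and it was the lower of the pair in litter 2 under the mutant label.

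**Figure D1:**
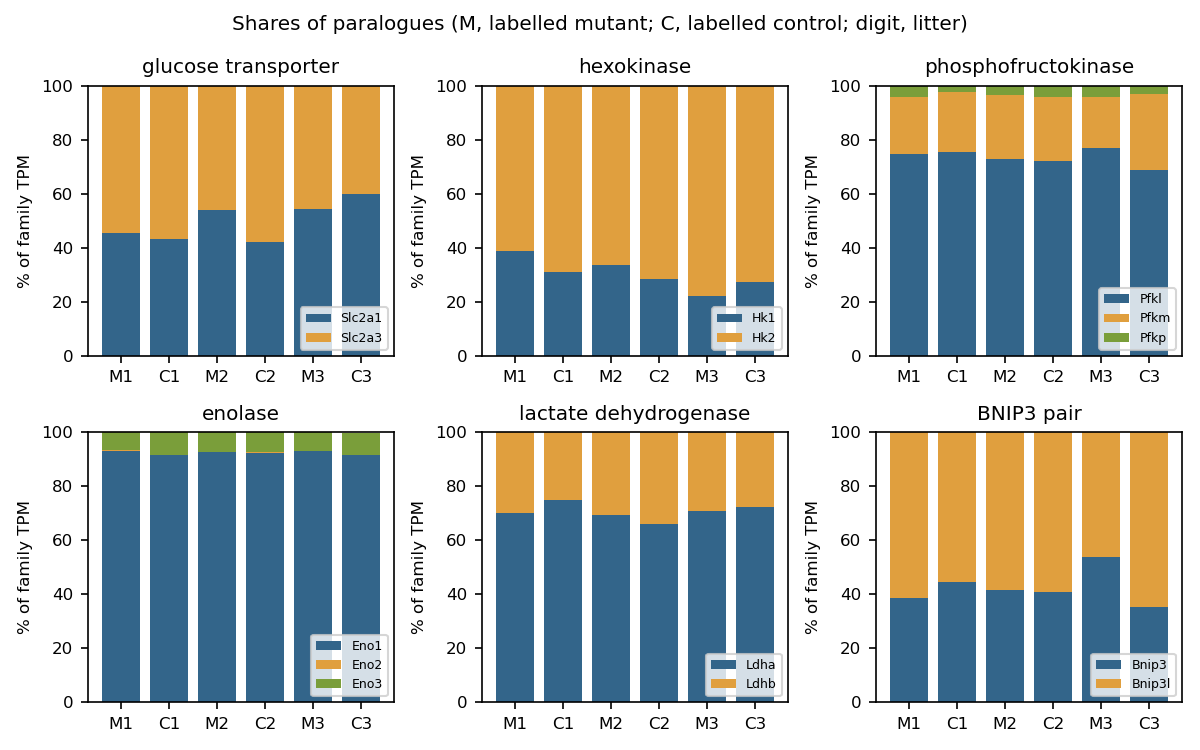
Bars give the percentage of the summed TPM of a gene family that each paralogue holds in each of the 6 libraries (M, labelled mutant; C, labelled control; digit, litter). Eno1 holds 91.7% to 93.2% of the enolases throughout, whereas Bnip3 ranges from 35.4% to 54.0% of the BNIP3 pair.

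No member passed the threshold in the comparison of mutant and control embryos that the authors deposited. Msx1 is at -5.19 ± 0.26 (log2 fold change ± standard error) in the authors' deposited table, so that negative values mean a lower level where Msx1 was lower. The authors' deposited table gives an adjusted p for 36 members, of which 0 were below 0.05, against 0.0961% of all genes (14 of 14572). At an unadjusted p under 0.05 the count was 0 of 38, against 1.85% of all genes. The signs were mostly negative in the authors' deposited table: of the 35 members with a mean of at least 1 TPM, 25 were negative, against 49.1% of all genes at that level. Their median log2 fold change was -0.11, against 0.003 for all genes at that level. In the authors' deposited table all 13 red blood cell markers were positive, with a median of 0.55, though 0 passed the adjusted threshold. Of 13 mitochondrially encoded genes 11 were negative, with a median of -0.12. The 1 called, mt-Co3, was positive, at 0.57 ± 0.13 (adjusted p = 0.0101 in the authors' deposited table). Between littermates (lower-Msx1 minus higher-Msx1 library, log2(TPM + 1)), the red blood cell medians were 1.39, 0.30 and -0.06 in litters 1, 2 and 3. The mitochondrial medians were -0.41, 0.07 and 0.04, so both shifts were widest in litter 1. The part of these 2 lists in the members' values was not tested.

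By role, the glucose transporter genes Slc2a1 and Slc2a3 were at -0.16 ± 0.19 and -0.08 ± 0.19 in the authors' deposited table. In the preparatory phase 5 of 9 genes were negative in the authors' deposited table (55.6%). The share of all genes with a mean of at least 1 TPM was 49.1%. Aldoa was at -0.18 ± 0.12 (unadjusted p = 0.139) and Pfkl at -0.16 ± 0.13 in the authors' deposited table. Aldoa is listed on 2 adjoining rows, and these values are for the higher-expressed one; the other, at up to 2.17 TPM, was at 0.82 ± 2.08 in the authors' deposited table. In the payoff phase 5 of 6 genes with a mean of at least 1 TPM were negative (83.3%, against 49.1% of all genes). In the authors' deposited table Pgam1 led them, at -0.18 ± 0.12 (unadjusted p = 0.122). Gapdh was at 0.01 ± 0.09 and Pkm at -0.005 ± 0.10 in the authors' deposited table. Among genes of pyruvate and lactate, Pdk1, a kinase that restrains pyruvate entry into mitochondria, was at -0.20 ± 0.19 and Ldha at -0.11 ± 0.11 in the authors' deposited table.

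The regulators Pfkfb3 and Pfkfb4, which set the level of a phosphofructokinase activator, were at 0.02 ± 0.24 and -0.84 ± 0.75 in the authors' deposited table. Hif1a was at -0.18 ± 0.13 and the oxygen sensors Egln1 and Egln3 at -0.02 ± 0.14 and 0.02 ± 0.37 in the authors' deposited table. Of the 8 other HIF targets with a mean of at least 1 TPM, 6 were negative there (75.0%, against 49.1% of all genes). Bnip3, a mitophagy receptor gene, had the smallest p of all members, at -0.44 ± 0.24 (unadjusted p = 0.0636, adjusted p = 1.00 in the authors' deposited table). Vegfa, the endothelial growth factor gene, was at -0.26 ± 0.20 and Ddit4, an inhibitor of mTORC1 induced by stress, at -0.30 ± 0.34 in the authors' deposited table.

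Within litters the differences between littermates were small for most members and changed sign between litters. Of 35 members with a mean of at least 1 TPM, 8 were lower in the lower-Msx1 library in all 3 litters (22.9%), against 11.8% of all 12063 genes at that level. These were Slc2a1, Pfkl, Aldoa, Pgk1 (phosphoglycerate kinase), Pgam1, Hif1a, Ndrg1 and P4ha2 (a collagen prolyl hydroxylase). With a difference of at least 1.1-fold required in each litter, 1 was left (share of all genes not given). This was Ndrg1, a stress-responsive gene of low level. It was at 0.822 and 0.990 TPM in the lower-Msx1 and higher-Msx1 libraries of litter 1, 1.09 and 1.33 TPM in litter 2, and 1.07 and 1.53 TPM in litter 3. The lower-Msx1 libraries of litters 2 and 3 thus lay above the higher-Msx1 library of litter 1, and the levels overlap across litters. In the other direction 1 member, Bnip3l, was higher in all 3 litters, against 10.9% of all genes, by 1.00-fold, 1.12-fold and 1.01-fold, and none was after median-of-ratios scaling.

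By class, the median differences were also small. The 24 glycolysis genes had median differences of -0.11, -0.04 and -0.09 on the log2(TPM + 1) scale in litters 1, 2 and 3 (lower-Msx1 minus higher-Msx1 library), and the 11 HIF genes -0.13, -0.06 and -0.12. All genes had medians of -0.09, 0.007 and 0.08. In litter 1 the glycolysis median was therefore close to that of all genes, and there 19 of the 24 glycolysis genes were lower (79.2%), against 64.1% of all genes. In litter 2 the count was 15 (62.5%, against 48.4% of all genes) and in litter 3 it was 14 (58.3%, against 38.9% of all genes). After median-of-ratios scaling between libraries, the glycolysis medians were -0.007, -0.05 and -0.18 and the HIF medians -0.08, -0.07 and -0.22. These differences come from the same libraries as the authors' deposited table and are not separate evidence.

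**Figure D2:**
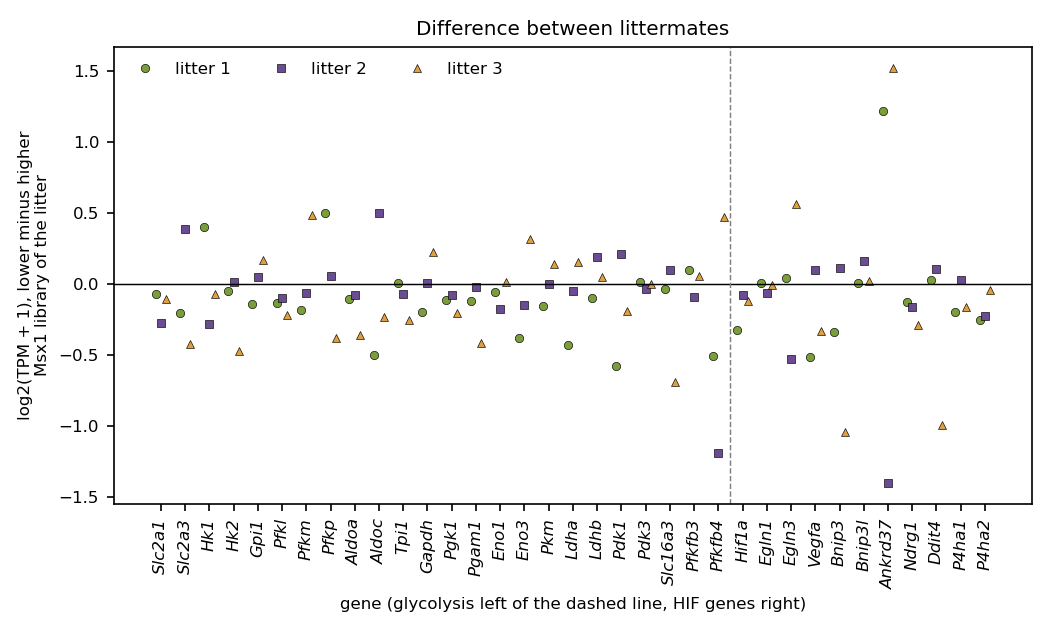
Each point is the difference in log2(TPM + 1) between the lower-Msx1 and the higher-Msx1 library of a litter, for each of 35 genes, with a marker shape for each litter. Most genes have points on both sides of 0, and Bnip3, Ddit4 and Slc16a3 are far below 0 in litter 3 but close to 0 or above it in litter 2.

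The members named by role showed how these differences were made up. Aldoa was at 295 and 318 TPM in the lower-Msx1 and higher-Msx1 libraries of litter 1, 277 and 293 TPM in litter 2, and 286 and 366 TPM in litter 3. It was lower in each litter, while the 2 groups of libraries overlapped. Pgam1 was at 532 and 578 TPM in litter 1, 565 and 573 TPM in litter 2, and 491 and 656 TPM in litter 3, so that litter 2 hardly differed. Hif1a was at 29.4 and 37.1 TPM in litter 1, 31.0 and 32.8 TPM in litter 2, and 29.0 and 31.7 TPM in litter 3, with the widest gap in litter 1. For Pgam1 and Hif1a the 2 groups of libraries did not overlap. The same held for Pgk1, at 268 to 280 TPM in the lower-Msx1 and 284 to 322 TPM in the higher-Msx1 libraries. The share of all genes without such an overlap is not given. Gapdh was at 3391 and 3882 TPM in litter 1, 3658 and 3646 TPM in litter 2, and 3806 and 3255 TPM in litter 3, a gap that reversed between litters 1 and 3. Ldha was at 491 and 663 TPM in litter 1, 476 and 494 TPM in litter 2, and 629 and 564 TPM in litter 3. Pdk1 was at 10.03 and 15.4 TPM in litter 1, 11.5 and 9.79 TPM in litter 2, and 10.4 and 12.0 TPM in litter 3. Ldha and Pdk1 were both highest in litter 1 under the control label. That library also had the highest mitochondrial share, whose part in these values was not tested.

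Bnip3 owed its difference mostly to 1 library. It was at 24.5 and 31.2 TPM in the lower-Msx1 and higher-Msx1 libraries of litter 1, 25.6 and 23.6 TPM in litter 2, and 23.2 and 49.0 TPM in litter 3. The library labelled mutant of litter 3 stood above all others, and the other 5 lay within 23.2 to 31.2 TPM. Ddit4 was at 16.6 and 16.3 TPM in litter 1, 10.1 and 9.31 TPM in litter 2, and 13.1 and 27.1 TPM in litter 3, again highest in that library. Bnip3l, the paralogue of Bnip3 and like it a mitophagy receptor gene, was at 38.5 and 38.4 TPM in litter 1, 36.8 and 32.9 TPM in litter 2, and 42.3 and 41.7 TPM in litter 3.

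**Figure D3:**
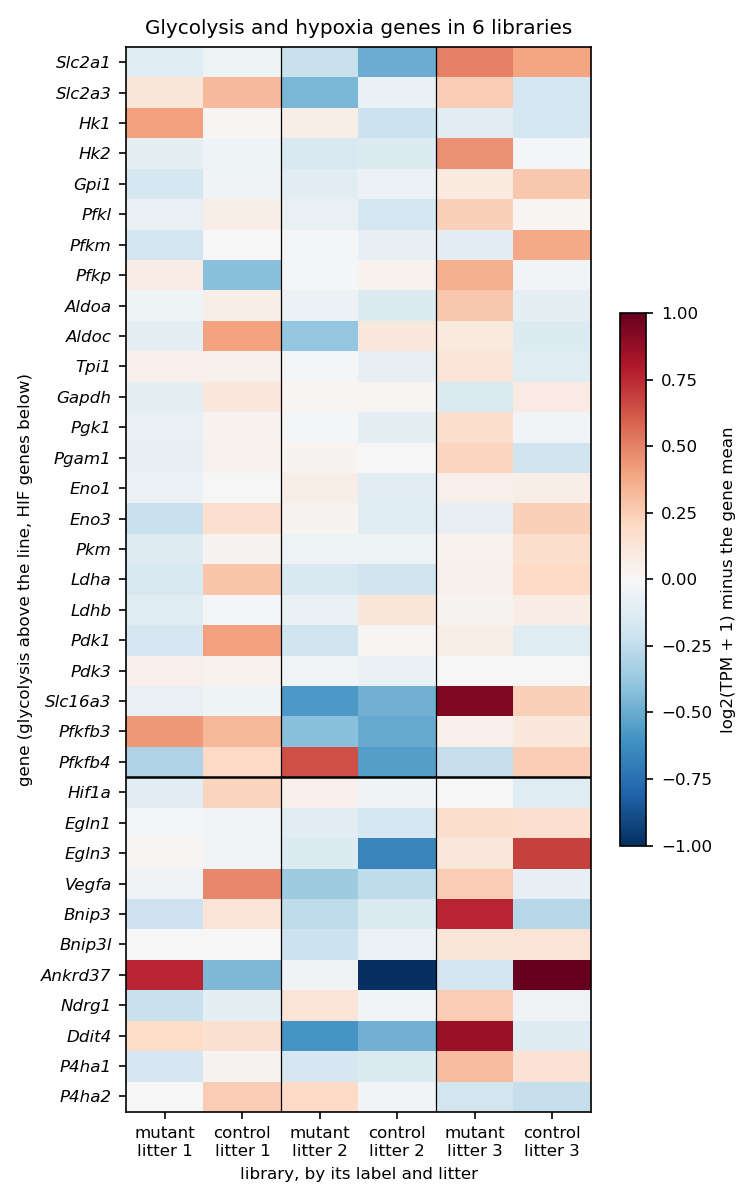
Colours, which saturate at 1 and -1, give log2(TPM + 1) of each of 35 genes minus its mean over the 6 libraries, with red above and blue below the mean. Slc16a3, Bnip3 and Ddit4 have their reddest cell under mutant litter 3, and both libraries of litter 2 are blue for Slc2a1, Slc16a3, Pfkfb3 and Egln3.

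Of the 35 members, 14 had their highest level in the library labelled mutant of litter 3 (40.0%), against 11.5% of all genes. They included Slc2a1, Hk2, Pfkl, Aldoa, Pgk1 and Pgam1 of glucose uptake and glycolysis, the lactate exporter Slc16a3, and the HIF targets Bnip3, Ddit4 and P4ha1. The library labelled control of litter 1 was highest for 8 members (24.3% of all genes) and that labelled control of litter 3 for 7 (30.1% of all genes). The libraries labelled mutant of litters 1 and 2 were highest for 3 and 2 members (8.88% and 11.6% of all genes) and that labelled control of litter 2 for 1 (13.6% of all genes). In litter 3 under the mutant label the red blood cell markers summed to 8794 TPM, the mitochondrial share was 6.33%, and 10 genes of the immediate early and heat shock responses summed to 84.7 TPM against 84.9 to 99.3 TPM in the others. Its endothelial markers summed to 94.3 TPM, the highest of the 6 (80.9 to 88.9 TPM in the others), and their part in the result was not tested.

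Several members had levels that separated the litters. For 8 of the 35 members (22.9%) the levels of the 3 litters did not overlap, against 5.96% of all genes. Litter 2 was the lowest in all 8, and litter 3 the highest in 6 of them. Among the 719 genes of the whole table whose litters did not overlap, litter 2 was the lowest in 33.5% and litter 3 the highest in 39.1%. The 8 members were Slc2a1, Hk2, Pdk3, Slc16a3, Pfkfb3, Egln1, Egln3 and Bnip3l. This count, the genes named for it, the count by highest library and that of negative signs were chosen after the values were seen. Of the 8 endothelial markers, 3 also had litters that did not overlap, and 1 of 12 red blood cell markers with a mean of at least 1 TPM.

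Slc2a1, which brings glucose into most cells, was at 19.1 and 20.1 TPM under the mutant and control labels in litter 1, 17.7 and 14.5 TPM in litter 2, and 30.0 and 27.7 TPM in litter 3. Both libraries of litter 3 lay above all others. Slc16a3 (MCT4), which exports lactate, was at 17.0 and 17.5 TPM in litter 1, 11.7 and 12.6 TPM in litter 2, and 35.2 and 21.4 TPM in litter 3. Littermates were close in litters 1 and 2 and apart in litter 3. Pfkfb3 was at 8.83 and 8.17 TPM in litter 1, 4.46 and 4.13 TPM in litter 2, and 6.55 and 6.84 TPM in litter 3, so that litter 1 was highest. Egln3, the hydroxylase gene that HIF induces, was at 5.40 and 5.20 TPM in litter 1, 4.75 and 2.99 TPM in litter 2, and 5.84 and 9.13 TPM in litter 3.

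Hk2 was at 16.3 and 16.9 TPM under the mutant and control labels in litter 1, 15.6 and 15.7 TPM in litter 2, and 24.3 and 17.2 TPM in litter 3. Its litters were separate by narrow gaps apart from the library labelled mutant of litter 3. Egln1 was at 41.8 and 41.6 TPM in litter 1, 39.0 and 37.3 TPM in litter 2, and 48.0 and 47.6 TPM in litter 3. Littermates differed by less than 2 TPM in each litter. Pdk3 ranged only from 24.8 to 26.9 TPM over the 6 libraries, the narrowest range relative to the mean of any member.

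A limma F test of litter over 12140 genes called 0 genes at an adjusted p under 0.05, and 0 of 35 members. At an unadjusted p under 0.05 it counted 5 of 35 members (14.3%), against 4.21% of all genes. Slc2a1 had the smallest p, with litter 3 above litter 2 by 0.81 on the log2(TPM + 1) scale (limma adjusted p = 0.807). Pfkfb3 and Slc16a3 followed, with litter 3 above litter 2 by 0.54 and 1.11 (limma adjusted p of 0.884 and 0.897). For Pfkfb3, however, litter 1 was the highest and litter 3 lay between the others. Ddit4 and Egln3 came next, with litter 3 above litter 2 by 0.90 and 0.80 (limma adjusted p of 0.999 for both). The litter differences thus did not pass the correction over all genes.

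**Figure D4:**
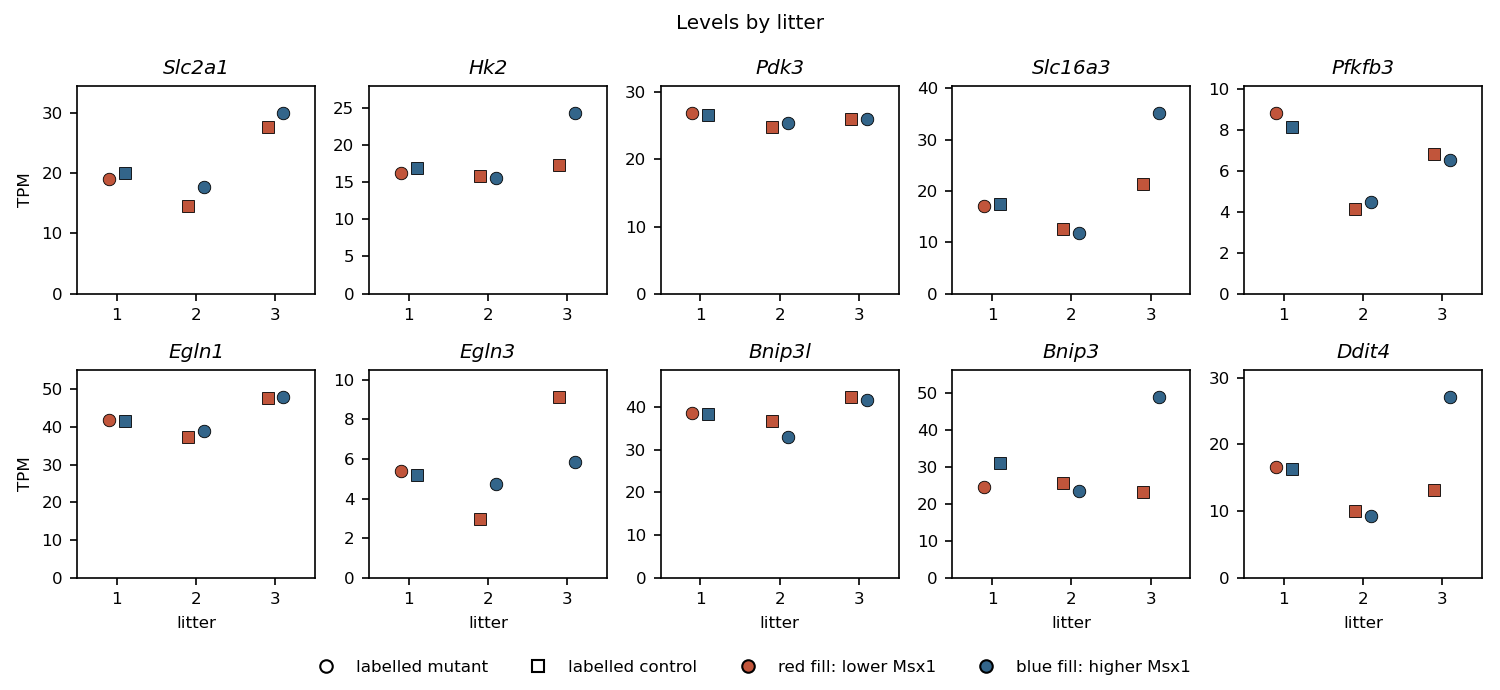
Points give the TPM of single libraries by litter, for the 8 members whose litters do not overlap and for Bnip3 and Ddit4 (circles, labelled mutant; squares, labelled control; red, lower Msx1; blue, higher Msx1). Slc2a1 lies at 27.7 and 30.0 TPM in litter 3 and at 14.5 to 20.1 TPM in the others, whereas Bnip3 and Ddit4 are high in 1 library of litter 3.

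Relative to their means, the widest ranges among members with a mean of at least 1 TPM belonged to Ankrd37 and Pfkfb4, both of low level, followed by Slc16a3. Ankrd37, a HIF target gene, was at 3.59 and 0.977 TPM under the mutant and control labels in litter 1, at 1.64 TPM and listed at 0 in litter 2, and with 1.39 and 5.85 TPM in litter 3. The library of lower Msx1 was the higher one in litters 1 and 3 and the lower one in litter 2. Pfkfb4 was at 0.629 and 1.31 TPM in litter 1, 2.15 and 0.381 TPM in litter 2, and 0.725 and 1.39 TPM in litter 3, with no order shared by the litters. Adm (adrenomedullin) did not exceed 0.306 TPM and Car9 (carbonic anhydrase 9) 0.693 TPM in any library, and Car9 was listed at 0 in 4 of them. Hk1 was highest in litter 1 under the mutant label, at 10.3 TPM against 6.33 to 7.91 TPM in the others, the library in which the red blood cell markers were also highest. Their part in that value was not tested.

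Between the labelled groups limma called 0 of 35 members and 0 of 12140 genes at an adjusted p under 0.05. At an unadjusted p under 0.05 it counted 0 members, against 6.71% of all genes. Gapdh had the smallest p of the members, with a mean of 3431 ± 199 TPM (SD, n = 3) under the mutant label against 3782 ± 114 TPM (SD, n = 3) under the control label. The difference was -0.14 ± 0.08 (SE) on the log2(TPM + 1) scale (limma adjusted p = 0.731). Of the 35 members, 21 had positive differences, against 4200 of all 12140 genes. The median was 0.03 for the members against -0.06 for all genes. Since Msx1 goes against the labels in 2 litters, these groups each mix lower-Msx1 and higher-Msx1 libraries.

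In the neighbouring pathways no gene passed the adjusted threshold of the authors' deposited table. Of 36 further HIF pathway and hypoxia genes, the authors' deposited table has 24 as negative (66.7%, against 49.8% of all genes). Their median there was -0.06. The smallest p were those of Ak4, an adenylate kinase gene, at -0.53 ± 0.22 (unadjusted p = 0.0175), and the nuclear receptor gene Rora, at -0.79 ± 0.40 (unadjusted p = 0.0485) in the authors' deposited table. Ak4 was at 12.9 and 29.4 TPM in the lower-Msx1 and higher-Msx1 libraries of litter 1, 17.6 and 18.7 TPM in litter 2, and 23.3 and 29.2 TPM in litter 3. It was lower in each litter, mostly in litter 1. Of 33 such genes with a mean of at least 1 TPM, 9 were lower in the lower-Msx1 library in all 3 litters (27.3%, against 11.8% of all genes) and 2 were higher (6.06%, against 10.9% of all genes).

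The lists of carbon metabolism had medians close to 0. The authors' deposited table has a p for 24 further glycolysis isoforms and regulators, of which 12 were negative, with a median of 0.002. Of all genes with a p there, 49.8% were negative. Of 7 pentose phosphate genes 4 were negative, with a median of -0.002, and of 20 genes of the TCA cycle and pyruvate dehydrogenase 8 were negative, with a median of 0.02 in the authors' deposited table. Fh1, the fumarate hydratase gene, had the smallest p of the last list, at 0.29 ± 0.17 (unadjusted p = 0.0814 in the authors' deposited table).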

How the data were processed

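The authors deposited, per the file headers, 1 TPM value per gene for each of 6 libraries (21827 rows) and 1 comparison table. Per the file headers, that deposited table has columns for base mean signal, log2 fold change with standard error, Wald score, and p-value before and after adjustment. Salmon 1.5.2, DESeq2 and mm10 appear in the submitters' processing notes without roles, and the model, annotation and direction were not given in the sources used here. Depth cannot be read from TPM.

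Rows of 1 symbol were summed (Aldoa only, among members). The 12140 genes that reached 1 TPM in 3 or more libraries were fitted with limma 3.58.1 in R 4.3.3 (variance trend, robust) on log2(TPM + 1), which understates changes of low genes, with Benjamini-Hochberg adjustment over all of them. That filter passed 35 members. The script was tested on simulated data. For a simulated difference of 1 on the log2 scale, the label test recovered 77.5% of the changed genes and the litter test 20.5%. For a difference of 2 they recovered 97% and 88.5%. P-values rest on the spread between 3 single embryos per label or 2 per litter. Members, lists and the naming rule (the highest and the smallest-p member of each role, the widest ranges, any member separated in every litter) were chosen with earlier results of these data known. The design text states that littermates pair the labels; deviations of littermates from their label means correlated at -0.05, -0.02 and -0.02. Gene positions are from GENCODE M21 (GRCm38) and promoters from RefSeq (GRCm38.p6).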

Additional observations from a re-analysis of the deposited data

How the results depend on the processing

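The count of 0 members called between the labelled groups held under all settings run: a pseudocount of 0.1, no filter, a mean of at least 5 TPM, median-of-ratios scaling, unsummed rows, each library left out (0 to 0), and the replicate block (litter as a paired term), which also gave 0. The smallest adjusted p of a member then ranged from 0.365 to 0.928. The litter test, chosen after the data were seen, also gave 0 members throughout (smallest adjusted p 0.176 to 0.944). The authors' deposited table had 0 members at either p.

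The count of 8 members lower in all 3 litters became 1 with a difference of at least 1.1-fold required, and 12 to 16 when 1 litter was left out, since fewer litters then have to share a direction. It was 6 after median-of-ratios scaling, 11 without mitochondrially encoded and red blood cell genes, and 7 at a mean of at least 5 TPM. No share of all genes is given at these settings, nor for the counts that follow in this paragraph. The count of 1 member higher in all 3 litters became 0 after median-of-ratios scaling, 0 without mitochondrially encoded and red blood cell genes, 0 with 1.1-fold required, 2 over all members with a value above 0 (Eno2 joined), and 3 to 4 without 1 litter. The count of 8 members whose litters do not overlap was 10 to 14 without 1 library, at 14 without litter 1's library labelled mutant and 13 without litter 3's library labelled control, since a single library has no range; it was 7 to 8 otherwise. The count of 14 members highest in the library labelled mutant of litter 3 was 12 to 16, and that of 25 negative members 22 to 27, under alternatives chosen after the data were seen.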
